A study of Mus musculus with 10 samples.

Results

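Xbp1 and 9 genes that fold proteins in the endoplasmic reticulum (ER) or remove misfolded ones from it were measured in mouse liver after a gavage of ethanol. The 9 others are Edem1, Sel1l, Syvn1, Derl1, Derl3 and Herpud1 of ER-associated degradation (ERAD), and the protein disulfide isomerases Pdia4, Pdia6 and P4hb. They were taken by gene symbol, matched through the RefSeq accession that the array files give for each probe. All 10 were on the array, with 19 of its 24375 probes that carry a symbol, and 8 of them were among the 26124 genes tested. Herpud1 and Pdia4 were not tested, because on 7 of 10 arrays each the scanner software had marked the spot as an outlier.

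The arrays were 2-colour Agilent mouse arrays of liver RNA from male C57BL/6N mice. According to the labels, 3 arrays held livers after a gavage of 7 g/kg ethanol, 4 after 5 g/kg ethanol, and 3 after isocaloric maltose matched to the 5 g/kg dose. No maltose group matched to 7 g/kg was analysed here, and the labels used give no age and no time between gavage and collection. Liver RNA was labelled with Cy5 on every array and a commercial mixed mouse RNA with Cy3, without dye swap, so a dye bias of a probe is shared by all groups. Since no label says that replicates were separate mice, a p-value here measures only how far these arrays spread, which may be technical.

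Misfolded glycoproteins in the ER are recognised by lectins, carried to a ubiquitin ligase complex in the membrane, drawn into the cytosol and degraded by the proteasome. Protein disulfide isomerases make, break and shuffle disulfide bonds during folding. When unfolded proteins accumulate, the sensor IRE1 splices the Xbp1 transcript into the form that encodes an active transcription factor, and ATF6 is cut to release another. Both factors raise the transcription of ERAD and folding genes, and secretory cells such as hepatocytes depend on them. The array ratio gives the amount of a transcript, and splicing of Xbp1 was not measured.

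ATF6 and XBP1 bind short promoter elements, and these elements are shown because they are the sequence feature by which the family is known. Promoter windows of 300 bases, 250 before and 50 after the annotated start, were found for 9 of the 10 genes in RefSeq, build GRCm38.p6; Derl1 was not among them. Both strands were searched without mismatch for the ER stress element (ERSE, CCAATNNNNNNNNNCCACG), for ERSE-II (ATTGGNCCACG) and for a core of the unfolded protein response element (UPRE, TGACGTGG). ERSE was found in Syvn1, Derl3 and Pdia6, and ERSE-II in Herpud1, with no overlap between motifs. The UPRE core was found in 0 of the 9 windows. In these 9 windows 4 genes held at least 1 of the motifs, against 270 of 32851 windows of the same length over all genes (0.822%); ERSE alone was in 0.119% of them, ERSE-II in 0.0365% and the UPRE core in 0.676%. A match is a description of the letters in the window and not of binding. The 250 bases before the start are given 5′ to 3′ on the gene's strand with the motif in capitals. They lie at chr19:6046326-6046575 (plus strand) for Syvn1, chr10:75893148-75893397 (plus) for Derl3, chr12:17266339-17266588 (plus) for Pdia6 and chr8:94386179-94386428 (plus) for Herpud1, and in Derl3 the motif reads on the opposite strand.
Syvn1: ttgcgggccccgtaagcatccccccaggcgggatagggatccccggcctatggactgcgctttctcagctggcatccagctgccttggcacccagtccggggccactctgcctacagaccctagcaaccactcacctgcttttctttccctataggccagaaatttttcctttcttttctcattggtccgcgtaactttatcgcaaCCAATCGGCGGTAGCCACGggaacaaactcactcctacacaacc
Derl3: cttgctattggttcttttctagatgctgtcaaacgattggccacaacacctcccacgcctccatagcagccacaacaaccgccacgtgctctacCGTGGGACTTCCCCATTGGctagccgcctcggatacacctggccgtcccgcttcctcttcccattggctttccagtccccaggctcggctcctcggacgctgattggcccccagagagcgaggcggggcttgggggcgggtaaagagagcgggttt
Pdia6: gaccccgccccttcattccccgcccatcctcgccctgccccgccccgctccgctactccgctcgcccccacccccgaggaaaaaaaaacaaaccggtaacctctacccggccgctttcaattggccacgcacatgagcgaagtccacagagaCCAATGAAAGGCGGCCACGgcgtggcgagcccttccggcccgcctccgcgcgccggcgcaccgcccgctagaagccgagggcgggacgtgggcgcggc
Herpud1: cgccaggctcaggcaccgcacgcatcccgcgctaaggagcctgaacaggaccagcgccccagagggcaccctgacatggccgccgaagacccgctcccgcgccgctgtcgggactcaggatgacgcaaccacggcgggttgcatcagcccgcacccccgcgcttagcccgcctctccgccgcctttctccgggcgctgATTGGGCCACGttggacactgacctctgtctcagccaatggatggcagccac

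The capitals in Syvn1 begin 44 bases before the start, those in Herpud1 52 bases, those in Pdia6 98 bases and those in Derl3 156 bases before it. The right-hand core of these motifs, CCACG, was found on either strand in 8 of the 9 windows, the exception being Xbp1. It was in 32.8% of all windows.

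**Figure D1:**
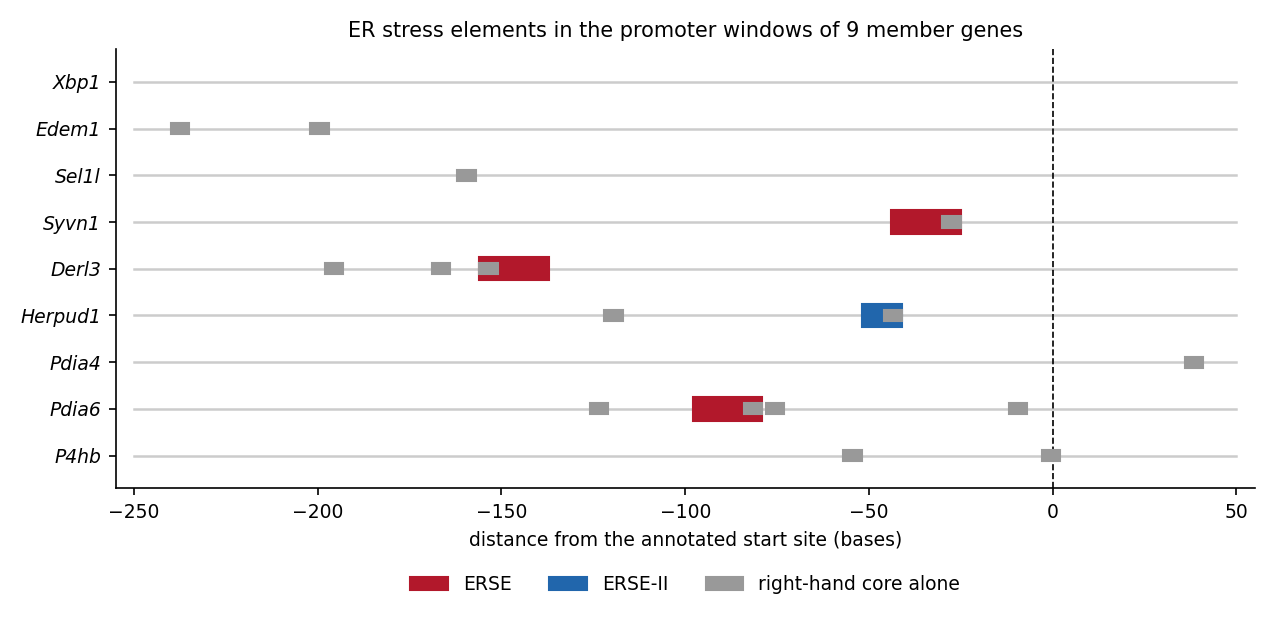
Position of ERSE (red), ERSE-II (blue) and the core CCACG (grey) in the promoter windows of 9 genes, as distance in bases from the annotated start site (dashed line). ERSE stands in Syvn1, Derl3 and Pdia6 and ERSE-II in Herpud1, all before the start site, and Xbp1 has no match.

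In the liver as a whole, 4 of the 8 tested genes rose at 7 g/kg ethanol against maltose (Xbp1, Edem1, Syvn1 and Pdia6) and 3 rose at 5 g/kg (Edem1, Syvn1 and Pdia6), by limma at an adjusted p under 0.05 (Benjamini-Hochberg, over the whole table). None fell. With the array slide as a block, Pdia6 at 7 g/kg and Edem1 at 5 g/kg lost their calls and Sel1l at 5 g/kg gained one. Among all 26124 genes, 4.66% rose, 4.35% fell and 9.01% were called in either direction at 7 g/kg, while 2.23% rose, 1.57% fell and 3.8% were called at 5 g/kg. The arrays of the groups did not overlap, with ethanol higher, in 6 of the 8 genes at 7 g/kg and in 4 at 5 g/kg, which was so for 13.1% and 9.29% of all genes. The median log2 change of the 8 genes was 0.48 at 7 g/kg and 0.51 at 5 g/kg, against 0.012 and 0.0026 over all genes, and 7 of the 8 changes were above 0 at each dose. Both comparisons share the maltose arrays. RNA of a whole liver does not tell a change in the number of cells of a type from a change in RNA per cell. All values below are log2 ratios of liver over reference RNA, where 0 means equal signal in both, and they set no gene's level against another's.

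**Figure D2:**
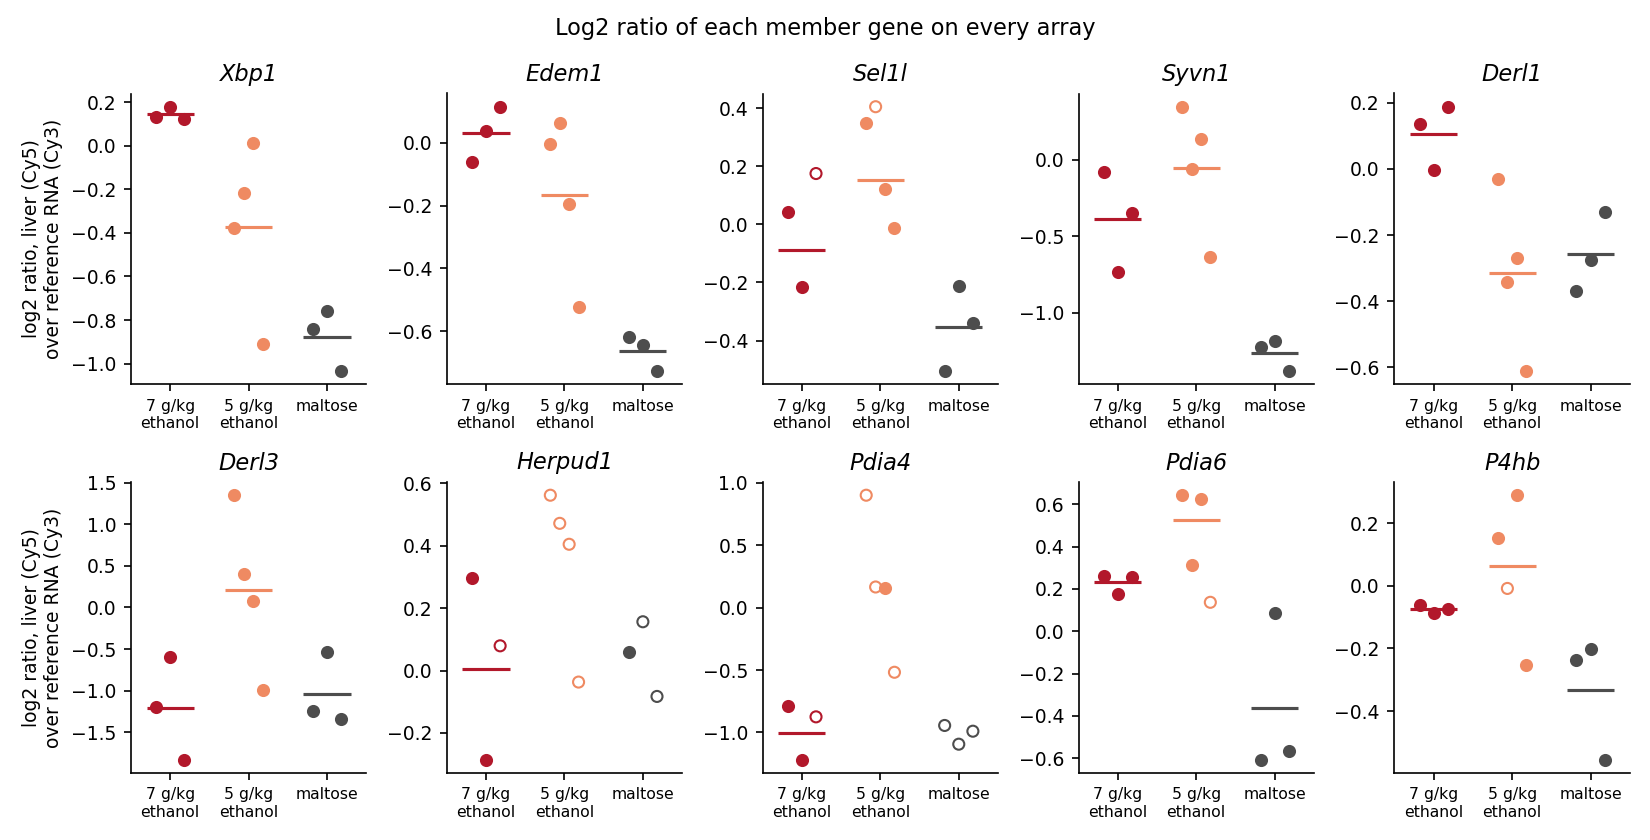
Log2 ratio of liver over reference RNA for each gene on each array, in groups of 7 g/kg ethanol, 5 g/kg ethanol and maltose. Filled points are spots used in the tests, open points are spots marked as outliers by the scanner software, and a line is the mean of the filled points where there are at least 2. The 3 arrays of 7 g/kg lie above all maltose arrays for Xbp1, Edem1, Syvn1, Derl1, Pdia6 and P4hb.

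Xbp1, the transcription factor, had log2 ratios of 0.132, 0.179 and 0.122 at 7 g/kg ethanol, of −0.379, −0.218, 0.014 and −0.911 at 5 g/kg, and of −0.842, −0.760 and −1.034 after maltose. The 7 g/kg arrays lay within 0.057 of each other and above every array of the other groups, while 1 of the 4 arrays of 5 g/kg fell inside the maltose range. At 7 g/kg Xbp1 was 2.03-fold higher than after maltose (log2 change 1.02, SE 0.18, adjusted p = 0.00204 by limma). The change at 5 g/kg was 0.50 (SE 0.17, adjusted p = 0.129). Between the doses the difference was 0.52 in favour of 7 g/kg (95% interval 0.16 to 0.88, adjusted p = 0.201), so a higher level at 7 than at 5 g/kg did not pass over all genes although the arrays did not overlap.

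Edem1, a mannosidase-like protein that hands misfolded glycoproteins on to degradation, had log2 ratios of −0.062, 0.038 and 0.115 at 7 g/kg, of −0.003, 0.063, −0.195 and −0.524 at 5 g/kg, and of −0.619, −0.644 and −0.727 after maltose. Every ethanol array lay above every maltose array. Edem1 rose by a log2 change of 0.69 at 7 g/kg (SE 0.14, adjusted p = 0.00507) and of 0.50 at 5 g/kg (SE 0.13, adjusted p = 0.0458). The second call stands at the threshold: it was lost with slide as a block (adjusted p = 0.0647) and on leaving out any 1 array other than the fourth of 5 g/kg, with adjusted p up to 0.161. Over all alternatives run, the call at 5 g/kg was lost in 17, with adjusted p up to 0.391 by limma. The call at 7 g/kg was lost in 2 of them, with adjusted p up to 0.0818.

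Syvn1 encodes HRD1, the ubiquitin ligase at the centre of the ERAD complex. Its log2 ratios were −0.081, −0.735 and −0.349 at 7 g/kg, 0.345, −0.063, 0.132 and −0.638 at 5 g/kg, and −1.225, −1.184 and −1.379 after maltose. Here too the 7 ethanol arrays all lay above the 3 maltose arrays, and the doses overlapped. Syvn1 rose 2.31-fold at 5 g/kg (log2 change 1.21, SE 0.20, adjusted p = 0.00323), a call that held on leaving out each of the 10 arrays in turn. At 7 g/kg it rose 1.83-fold (log2 change 0.87, SE 0.21, adjusted p = 0.0167). That call was lost without the first or the third array of 7 g/kg or the third maltose array, with adjusted p up to 0.0738. Over all alternatives run it was lost in 6, with adjusted p up to 0.213 by limma. These include the scanner processed signals (adjusted p = 0.0668) and the deposited series table (adjusted p = 0.0653).

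Sel1l, the adaptor that steadies HRD1 in the membrane, had values of 0.042 and −0.217 at 7 g/kg, of 0.348, 0.123 and −0.012 at 5 g/kg, and of −0.505, −0.213 and −0.340 after maltose. A single spot at each dose was marked as an outlier and left out. The 3 arrays of 5 g/kg lay above the maltose arrays and the change was 0.51 (SE 0.13, adjusted p = 0.0552), which missed the threshold. On leaving out each array in turn that change ran from 0.41 to 0.78 and passed in 3 of 10 fits, without the fourth array of 5 g/kg or the first or second of 7 g/kg (adjusted p 0.0191 to 0.221 over the 10), and a fit that blocks on slide called it (adjusted p = 0.0458). The second of the 2 arrays of 7 g/kg lay below the second maltose array, and the change was 0.26 (SE 0.15, adjusted p = 0.365). In the fit of all probes, a second Sel1l probe was higher at 5 g/kg by 0.78 (SE 0.17, adjusted p = 0.0179).

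The derlins are membrane proteins that help to draw substrates out of the ER. Derl3 and Derl1 are given in turn and were not tested against each other. Derl3 had log2 ratios of −1.194, −0.594 and −1.829 at 7 g/kg, of 1.349, 0.398, 0.075 and −0.987 at 5 g/kg, and of −1.245, −0.536 and −1.345 after maltose. Of the 4 arrays of 5 g/kg, 3 lay above all others and the fourth lay among the 7 g/kg and maltose arrays. The log2 change was 1.25 at 5 g/kg (SE 0.41, adjusted p = 0.124) and −0.16 at 7 g/kg (SE 0.44, adjusted p = 0.904), and 7 minus 5 g/kg gave −1.41 (95% interval −2.29 to −0.54, adjusted p = 0.135). None of these passed, and Derl3 had the widest spread between arrays of the 8 genes in each group.

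Derl1 had values of 0.135, −0.003 and 0.188 at 7 g/kg, of −0.032, −0.342, −0.270 and −0.611 at 5 g/kg, and of −0.368, −0.275 and −0.130 after maltose. The 7 g/kg arrays lay above all others, and the 5 g/kg arrays overlapped the maltose ones. Its change was 0.36 at 7 g/kg (SE 0.14, adjusted p = 0.127) and −0.06 at 5 g/kg (SE 0.13, adjusted p = 0.893). The sign at 5 g/kg turned under other settings, for example to 0.13 as the mean over its probes. In the fit of all probes, 1 of its 4 probes (A_51_P504522) rose at 7 g/kg by 0.69 (SE 0.14, adjusted p = 0.00588) and was higher at 7 than at 5 g/kg by 0.62 (SE 0.13, adjusted p = 0.0266).

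Among the disulfide isomerases, Pdia6 (P5) had log2 ratios of 0.259, 0.178 and 0.255 at 7 g/kg, of 0.643, 0.315 and 0.626 at 5 g/kg, and of −0.606, 0.085 and −0.564 after maltose, with 1 marked spot left out at 5 g/kg. All ethanol arrays lay above all maltose arrays, though the second maltose array stood above the other two. Pdia6 rose 1.85-fold at 5 g/kg (log2 change 0.89, SE 0.17, adjusted p = 0.0091) and 1.51-fold at 7 g/kg (0.59, SE 0.17, adjusted p = 0.0412). The call at 5 g/kg was lost without the first maltose array (adjusted p = 0.0513). Over all alternatives run it was lost in 4, with adjusted p up to 0.0865 by limma. These include the scanner processed signals (adjusted p = 0.0737) and the deposited series table (adjusted p = 0.0694). The call at 7 g/kg was lost with slide as a block (adjusted p = 0.147) and in 6 of 10 fits that leave out 1 array, namely without the first array of 5 g/kg, without each array of 7 g/kg in turn and without the first or the third maltose array, with adjusted p up to 0.18. Over all alternatives run, the call at 7 g/kg was lost in 12, with adjusted p up to 0.217 by limma.

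P4hb, the classical protein disulfide isomerase, had values of −0.061, −0.087 and −0.073 at 7 g/kg, of 0.154, 0.290 and −0.252 at 5 g/kg with 1 marked spot left out, and of −0.238, −0.203 and −0.555 after maltose. The 7 g/kg arrays lay within 0.026 of each other and just above the maltose arrays. Its changes were 0.26 at 7 g/kg (SE 0.14, adjusted p = 0.363) and 0.40 at 5 g/kg (SE 0.14, adjusted p = 0.178). The 95% intervals were −0.05 to 0.57 and 0.09 to 0.71, the second of them above 0, and neither change passed over all genes.

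Pdia4 (ERp72) and Herpud1, a membrane protein of the HRD1 complex, were not in the main fit. Their array values are given here with the marked spots kept. Their spots were bright, with median liver intensities from 2166.5 to 11664 for Pdia4 and from 3059 to 8853 for Herpud1 over a local background of 20 to 28. For Pdia4 the log2 ratios were then −0.814, −1.238 and −0.875 at 7 g/kg, 0.900, 0.165, 0.130 and −0.518 at 5 g/kg, and −0.944, −1.094 and −0.990 after maltose. The 4 arrays of 5 g/kg stood above all others, and the 7 g/kg arrays lay around the maltose values. All 3 maltose spots of Pdia4 were marked ones, so this rests on values that the tests of the other 8 genes leave out.

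With marked spots kept in the whole table (26946 genes), Pdia4 rose 2.26-fold at 5 g/kg against maltose (log2 change 1.18, SE 0.23, adjusted p = 0.0105) and differed by 0.03 at 7 g/kg (SE 0.25, adjusted p = 0.969). It was lower at 7 than at 5 g/kg by a log2 change of −1.14 (SE 0.23, adjusted p = 0.0209). In that fit 2.23% of genes rose at 5 g/kg and 0.961% were lower at 7 than at 5 g/kg. The call against maltose held on leaving out each array in turn, and the call between doses was lost without the second array of 5 g/kg or without any one of the 7 g/kg arrays, with adjusted p up to 0.101. Herpud1 had 0.273, −0.308 and 0.079 at 7 g/kg, 0.561, 0.471, 0.404 and −0.037 at 5 g/kg, and 0.051, 0.156 and −0.083 after maltose. Its groups overlapped, with changes of 0.31 at 5 g/kg (SE 0.16, adjusted p = 0.367) and −0.03 at 7 g/kg (SE 0.17, adjusted p = 0.963). Herpud1 could also be tested in the deposited series table. There its changes by limma were 0.36 at 5 g/kg (adjusted p = 0.358) and −0.05 at 7 g/kg (adjusted p = 0.937).

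**Figure D3:**
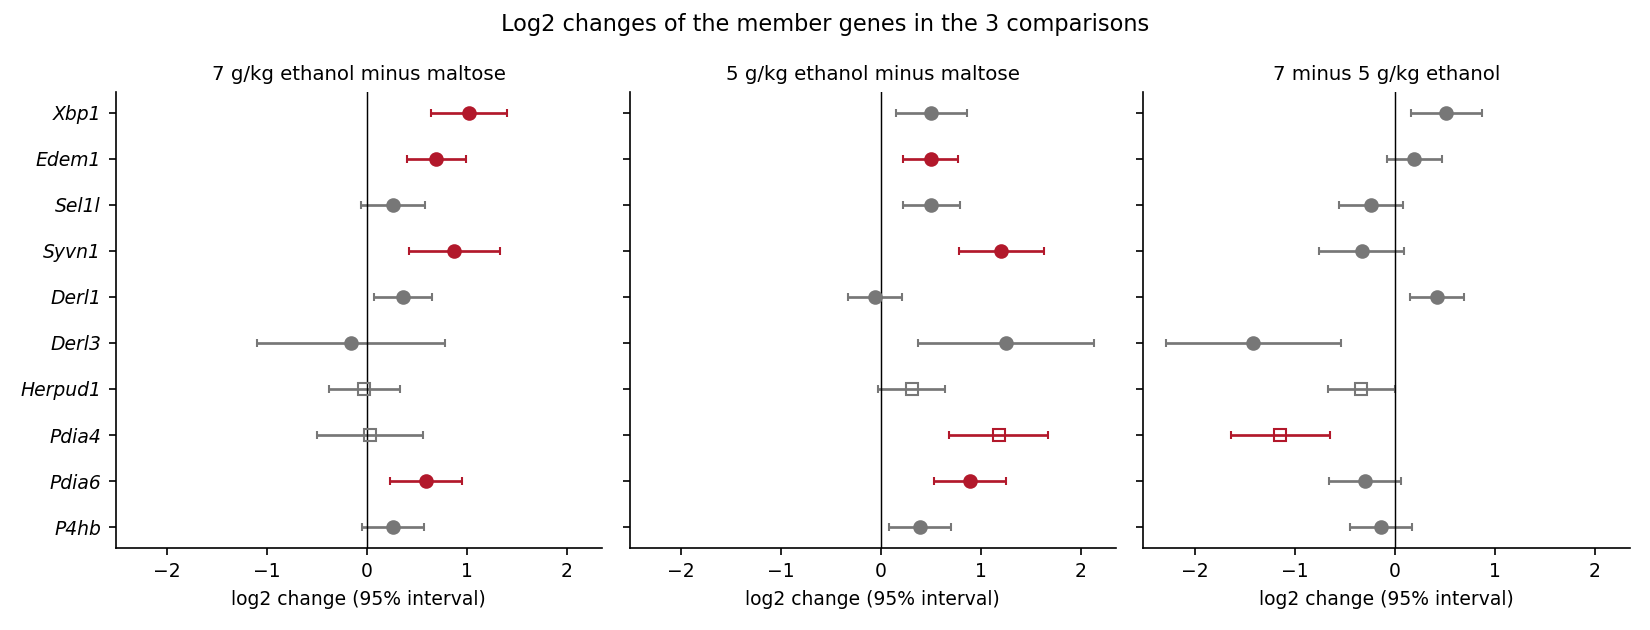
Log2 change of each gene with its 95% interval, for 7 g/kg ethanol minus maltose, 5 g/kg ethanol minus maltose and 7 minus 5 g/kg ethanol. Red marks an adjusted p under 0.05 and open squares are the 2 genes fitted with marked spots kept. Xbp1 has its highest change at 7 g/kg, while Derl3 and Pdia4 lie near 0 at 7 g/kg, above 1 at 5 g/kg and left of 0 in the comparison of doses.

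Ordered by size, the changes at 7 g/kg ran downwards through Xbp1 (1.02), Syvn1 (0.87), Edem1 (0.69), Pdia6 (0.59), Derl1 (0.36), Sel1l (0.26), P4hb (0.26) and Derl3 (−0.16). At 5 g/kg they ran through Derl3 (1.25), Syvn1 (1.21), Pdia6 (0.89), Sel1l (0.51), Xbp1 (0.50), Edem1 (0.50), P4hb (0.40) and Derl1 (−0.06). Neighbours in these orders were not tested against each other, and the SE of a change ran from 0.13 to 0.44. In the direct test of 7 minus 5 g/kg, limma called 0 of 8 genes, where 1.57% of all genes were called. By the unadjusted p under 0.05 there were 3, with Xbp1 and Derl1 higher at 7 g/kg and Derl3 lower, a threshold met by 10.8% of all genes. The median over the 8 genes was −0.19. Arrays did not overlap in 3 of the 8: 7 g/kg was above 5 g/kg for Xbp1 and Derl1 (4.87% of all genes) and below it for Pdia6 (6.13%), whose doses overlapped with the marked spot kept. Edem1 differed between the doses by 0.20 with a 95% interval of −0.08 to 0.47, and Syvn1 by −0.33 with an interval of −0.75 to 0.09.

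The fourth array of 5 g/kg stood apart from its group. It was the lowest of the 4 in 7 of the 8 genes, and the other gene, Pdia6, had its spot marked as an outlier there. Averaged over the genes with a value, the 5 g/kg arrays stood 0.947, 0.770, 0.743 and 0.122 above the maltose mean, against 0.540, 0.488 and 0.461 for the 7 g/kg arrays and −0.062, 0.178 and −0.115 for the maltose arrays. This array had a median liver signal of 164 and 72.8% of spots well above background, within the range of all arrays (120 to 217 and 67% to 86.1%), and its mean hepatocyte marker ratio of 0.809 was the highest of the 10. Whether any of these played a part was not tested.

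In the fit without that array 7 of the 8 genes passed as higher at 5 g/kg, all but Derl1, where 2.43% of all genes did. The array is singled out here by its low values in these same genes, so leaving it out raises their 5 g/kg means by construction, and the values without it show how far 1 array decides the calls and support none of them. The log2 change at 5 g/kg was then 0.68 for Xbp1 (adjusted p = 0.00618), 1.65 for Derl3 (adjusted p = 0.0121) and 0.55 for P4hb (adjusted p = 0.038). For 7 minus 5 g/kg, Derl3 had −1.81 (adjusted p = 0.0167), where 0.634% of all genes were called lower. Over all alternatives run, the adjusted p of these 4 results ranged from 0.00618 to 0.35, 0.00326 to 0.346, 0.0362 to 0.859 and 0.00499 to 0.523. Without the first maltose array, 1 gene passed at 5 g/kg, where 1.1% of all genes were called higher.

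**Figure D4:**
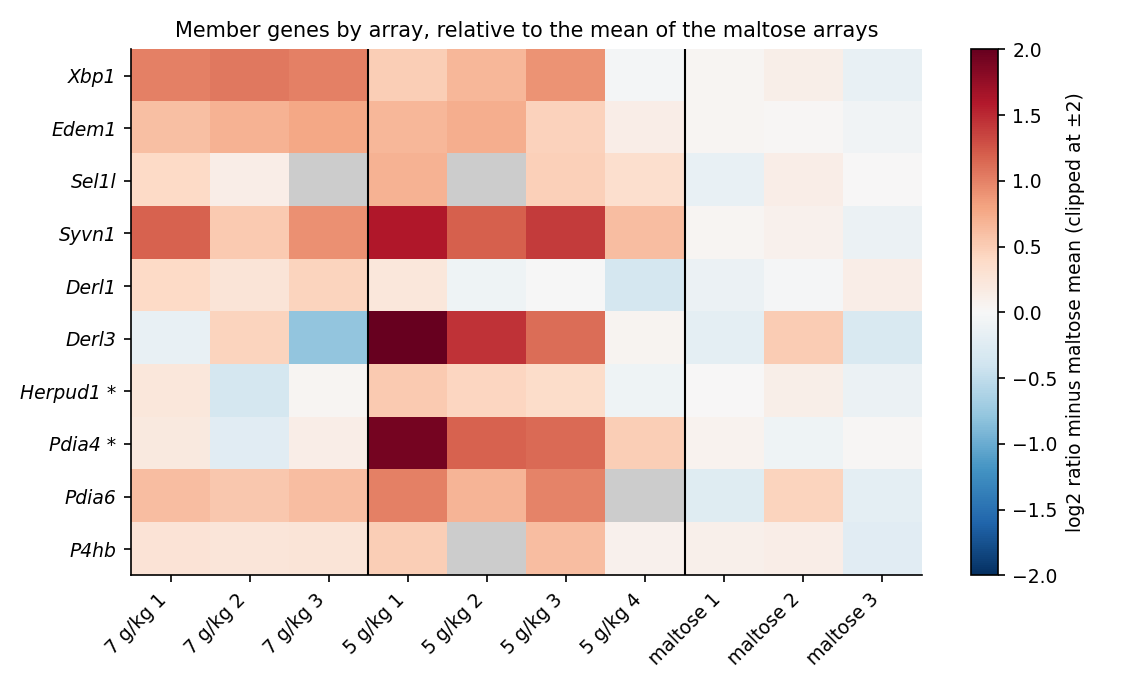
Log2 ratio of each gene on each array minus the mean of the maltose arrays, with arrays of 7 g/kg, 5 g/kg and maltose from left to right. Grey cells are marked spots left out, and the 2 genes with an asterisk are shown with marked spots kept. The fourth array of 5 g/kg is pale next to the other 3, and Derl3 and Pdia4 are dark in those 3.

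The arrays came from 4 slides, none of which held 1 group alone. Deviations from the group means correlated with a median of 0.176 over the 8 pairs of arrays from different groups on 1 slide, against −0.0222 over the 25 pairs on different slides. With slide as a block, 3 genes rose at 7 g/kg (Xbp1, Edem1 and Syvn1), where 3.69% of all genes did, and 3 at 5 g/kg (Syvn1, Pdia6 and Sel1l), where 2.26% did. Between the doses 0 of 8 passed and 1.31% of all genes did. Within the 2 slides that hold both groups, 7 g/kg minus maltose was 0.89 and 1.16 for Xbp1, 0.58 and 0.84 for Edem1, 1.103 and 1.03 for Syvn1 and 0.17 and 0.82 for Pdia6. Within the 3 slides that hold both, 5 g/kg minus maltose was 0.12 to 0.54 for Xbp1, 0.20 to 0.71 for Edem1, 0.74 to 1.57 for Syvn1 and 0.36 to 2.59 for Derl3, and for Pdia6 it was 0.23 and 1.25 on the 2 slides with a value. Over the 8 genes, 13 of 15 within-slide differences were above 0 at 7 g/kg, the other two being Derl3 (−0.66 and −0.48). At 5 g/kg 19 of 21 were above 0, the other two being Derl1 (−0.48 and −0.07). Each such difference rests on 1 array of each group. Genes on 1 slide share the same arrays and are not replicates. The share of such differences above 0 over all genes is not given here, so these counts are only a description.

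Edem1, Sel1l, Syvn1, Derl1 and Pdia6 had 2 to 4 tested probes each, and over all 17 tested probes 7 rose at 7 g/kg and 8 at 5 g/kg, where 4.82% and 2.46% of all probes rose. Between the doses 1 of 17 was higher at 7 g/kg, where 0.724% of all probes were. All 3 Pdia6 probes rose at both doses, by 0.59 to 0.77 at 7 g/kg and by 0.63 to 1.04 at 5 g/kg. Both Syvn1 probes rose at 5 g/kg, by 1.21 and 0.60, and 1 of them at 7 g/kg. Of the Edem1 probes 1 of 3 rose at 7 g/kg and 2 of 3 at 5 g/kg, with all 3 changes above 0 at either dose. Probes of 1 gene share their RNA and are not replicates.

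**Figure D5:**
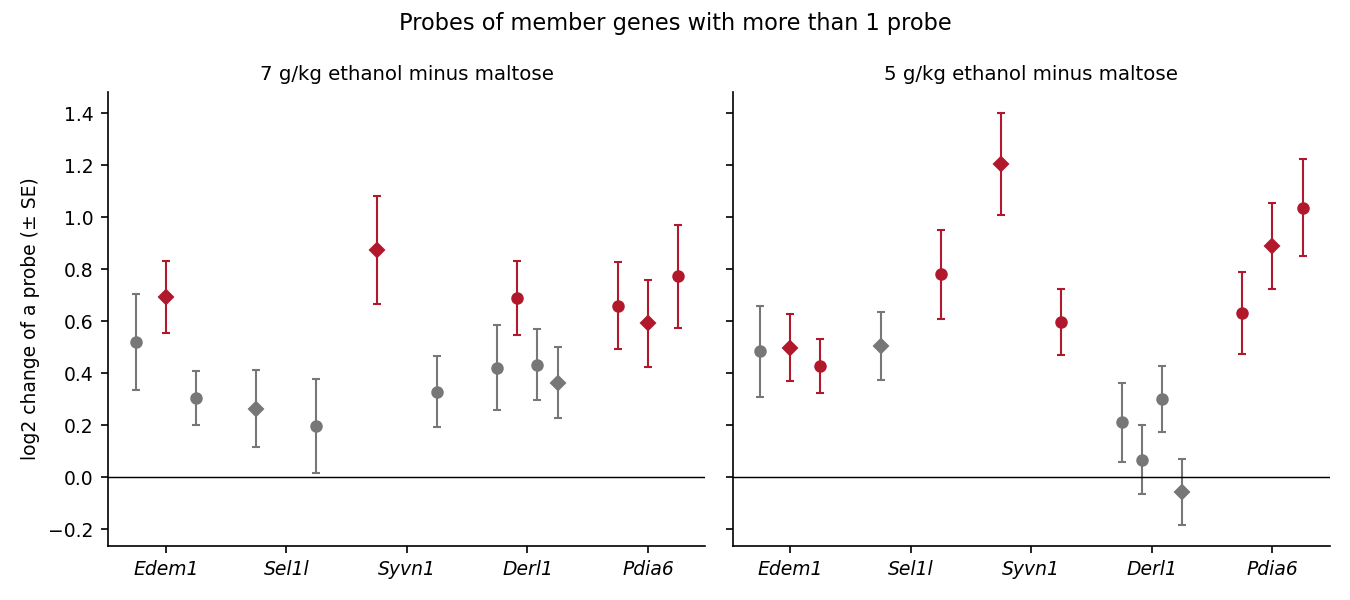
Log2 change of each probe (± SE) for the genes with more than 1 tested probe, at 7 g/kg minus maltose and at 5 g/kg minus maltose. Red marks an adjusted p under 0.05 over all probes and a diamond the probe used for the gene. The 3 Pdia6 probes are red at both doses, and 1 of 4 Derl1 probes is red at 7 g/kg.

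Of 30 other ERAD genes tested, 4 rose and 1 fell at 7 g/kg, and 4 rose at 5 g/kg, with medians of −0.07 and −0.02. For this and the lists below, 4.66% of all genes rose and 4.35% fell at 7 g/kg, and 2.23% rose at 5 g/kg. Ube2g2, a ubiquitin-conjugating enzyme of ERAD, rose at 7 g/kg by 1.01 (SE 0.13, adjusted p = 0.000217) and at 5 g/kg by 0.93 (SE 0.12, adjusted p = 0.000692). Derl2, the remaining derlin, rose at both doses, by 0.65 (SE 0.13, adjusted p = 0.00525) and 0.52 (SE 0.13, adjusted p = 0.0392). Uggt1, which reglucosylates misfolded glycoproteins, rose at 7 g/kg by 0.56 (SE 0.15, adjusted p = 0.0292), and Aup1, a lipid droplet and ERAD protein, fell by 0.39 (SE 0.11, adjusted p = 0.036). Selenok, a selenoprotein of the ER membrane, was the other gene that rose at 7 g/kg; it also rose at 5 g/kg, as did Ubxn4.

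Of 18 other genes of the disulfide isomerase family and of ER oxidation, 5 rose at 7 g/kg and 3 at 5 g/kg, with medians of 0.14 and 0.13. Creld2, a secreted ER stress gene with disulfide isomerase activity, rose 2.28-fold at 7 g/kg (log2 change 1.19, SE 0.23, adjusted p = 0.00479) and 5.78-fold at 5 g/kg (2.53, SE 0.23, adjusted p = 5.21e-05). Creld2 was lower at 7 than at 5 g/kg by −1.34 (SE 0.23, adjusted p = 0.00948), and so was Creld1 by −0.67 (SE 0.12, adjusted p = 0.00904), the 2 of 18 that differed between the doses, where 0.907% of all genes were lower. Tmx4, a membrane thioredoxin, rose at 7 g/kg by 0.72 (SE 0.11, adjusted p = 0.000878), Txndc11 by 0.57 (SE 0.12, adjusted p = 0.00628) and Ero1a, the oxidase that recharges P4hb, by 0.53 (SE 0.11, adjusted p = 0.00754). Ero1a also rose at 5 g/kg, by 0.41 (SE 0.10, adjusted p = 0.0419).

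Among 11 sensors and factors of ER stress, 2 rose at 7 g/kg and 1 at 5 g/kg. Atf6, which encodes the sensor that binds ERSE, rose by 0.53 at 7 g/kg (SE 0.10, adjusted p = 0.0056) and 0.54 at 5 g/kg (SE 0.10, adjusted p = 0.0112). Creb3l2, a related membrane-bound factor, rose at 7 g/kg by 0.98 (SE 0.23, adjusted p = 0.0152). Eif2ak3, which encodes PERK, changed by 0.45 at 7 g/kg (SE 0.18, adjusted p = 0.162), and Bloc1s1, a transcript cleaved by IRE1, by −0.16 (SE 0.10, adjusted p = 0.419).

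Of 17 ER chaperones and other targets of XBP1 or ATF6, 6 rose at each dose (over all genes 4.66% at 7 g/kg and 2.23% at 5 g/kg), with medians of 0.57 at 7 g/kg and 0.42 at 5 g/kg. Among them at 7 g/kg, the translocon genes Sec61b (0.77, adjusted p = 0.00353), Ssr3 (0.69, adjusted p = 0.0083) and Sec61a1 (0.65, adjusted p = 0.00871) and the co-chaperone Dnajc3 (0.57, adjusted p = 0.0141) had the smallest p, with SE of 0.13 to 0.15. At 5 g/kg Dnajc3 rose by 0.85 (SE 0.13, adjusted p = 0.00263), while Sec61b changed by 0.15 (SE 0.14, adjusted p = 0.681). Sec61b was higher at 7 than at 5 g/kg by 0.62 (SE 0.14, adjusted p = 0.0344), 1 of 17 in that list where 0.662% of all genes were higher.

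The mean centred profile of the 5 tested genes with a value on all arrays (Xbp1, Edem1, Syvn1, Derl1 and Derl3) was compared with 13573 other genes. This profile holds no disulfide isomerase, and the Pearson r of its own genes with it ran from 0.338 (Derl1) to 0.94 (Syvn1). The 10 genes most like it, by Pearson r over the 10 arrays, were Krt8 (0.955), Elac1 (0.95), Nktr (0.942), Sdf2l1 (0.942), Rassf1 (0.933), Fscn1 (0.932), Manf (0.929), Uggt1 (0.929), Eps8 (0.919) and Rfxank (0.917). The points share arrays and reference RNA, and r is a description. These 10 genes were picked by likeness, over the same arrays, to a profile that was higher on most ethanol arrays than after maltose. Their changes against maltose are thus partly set by that choice and lend no separate support. Sdf2l1, an ER chaperone cofactor, rose at 5 g/kg by 1.55 (SE 0.24, adjusted p = 0.00219 by limma), and Manf, a secreted ER stress protein, by 1.77 (SE 0.30, adjusted p = 0.00403). At 7 g/kg Manf rose by 1.105 (SE 0.32, adjusted p = 0.0447), and Sdf2l1 changed by 0.85 (SE 0.26, adjusted p = 0.0536). Krt8, a keratin of hepatocytes, changed by 0.39 at 7 g/kg (SE 0.14, adjusted p = 0.108) and 0.44 at 5 g/kg (SE 0.13, adjusted p = 0.0853).

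All 5 hepatocyte markers on the array stood well above background on every array, with mean log2 ratios of 0.328 to 0.566 at 7 g/kg, 0.520 to 0.809 at 5 g/kg and 0.231 to 0.424 after maltose. Of them Ttr rose at 7 g/kg by 0.69 (adjusted p = 0.0489 by limma), with arrays that overlapped those of maltose. The other 4 did not pass at 7 g/kg: Hnf4a changed by 0.26, Alb by 0.08, Apoa1 by −0.16 and Apob by −0.25. Of the secretory cell types that are rich in these genes, 0 of 7 markers of plasma and B cells and 0 of 8 of exocrine pancreas passed at either dose by limma, with 1 and 0 at an unadjusted p under 0.05. Their mean log2 ratios were −0.087 to −0.024 at 7 g/kg, −0.051 to 0.140 at 5 g/kg and −0.070 to 0.018 after maltose for plasma and B cells. For pancreas they were −0.185 to −0.114, −0.199 to −0.043 and −0.150 to −0.069 in the same order. The summed liver intensity is not normalized between arrays, whose median liver signal was 190 to 217 at 7 g/kg, 133 to 213 at 5 g/kg and 120 to 163.5 after maltose. That sum was 1799 to 2360 at 7 g/kg, 1362 to 2697 at 5 g/kg and 1203 to 1780 after maltose for plasma and B cells, and 4831 to 5462, 3330 to 5305 and 2801 to 4526 for pancreas.

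Neutrophil markers rose at 7 g/kg in 2 of 7 (S100a8 and S100a9). S100a8 was not well above background on any maltose array, so it entered the test only through the ethanol arrays. It was also higher at 7 than at 5 g/kg by 0.89 (SE 0.17, adjusted p = 0.0166), with a mean log2 ratio of 0.57 ± 0.08 (SD, n = 3) at 7 g/kg and −0.32 ± 0.40 (n = 4) at 5 g/kg, where it was well above background on 3 of 4 arrays. The mean log2 ratio of the neutrophil list was 0.231 to 0.360 at 7 g/kg, −0.194 to 0.364 at 5 g/kg and −0.173 to −0.092 after maltose, with summed intensities of 3710 to 3832, 2336 to 3966 and 2004 to 2656. Endothelial markers rose in 3 of 8 at 7 g/kg (Lyve1, Cdh5 and Pecam1) and in 2 of 8 at 5 g/kg (Lyve1 and Cdh5), with mean log2 ratios of −0.070 to −0.011 at 7 g/kg, −0.152 to 0.009 at 5 g/kg and −0.539 to −0.294 after maltose and sums of 3933 to 5197, 2373 to 4415 and 1571 to 2613. Over all genes 4.66% rose at 7 g/kg and 2.23% at 5 g/kg. Lyve1 had the largest change of this list at 7 g/kg (1.72). The 5 that did not pass there were Tek (0.19), Eng (0.16), Stab2 (0.04), Clec4g (0.02) and Kdr (−0.28), whose arrays lay below those of maltose for Kdr. At 5 g/kg Dcn, 1 of 7 stellate and fibroblast markers, rose and Spp1, 1 of 5 bile duct markers, fell. At 7 g/kg 0 of these 7 and 0 of these 5 passed. By the unadjusted p under 0.05 there were 4 stellate and fibroblast markers at 7 g/kg and 2 at 5 g/kg. Mean log2 ratios of that list were 0.08 to 0.17 at 7 g/kg, 0.05 to 0.19 at 5 g/kg and −0.30 to −0.03 after maltose. Of 6 Kupffer cell markers 0 passed, with 0 at 5 g/kg and 1 at 7 g/kg at an unadjusted p under 0.05. The share of all genes at that unadjusted threshold against maltose is not given here. The unadjusted counts of all these marker lists, with plasma and B cells and pancreas above, therefore cannot be read against it. All 7 tested markers of plasma and B cells stood well above background on all arrays, as did 7 of the 8 for pancreas. The part of these cell types in the changes above was not tested.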

How the data were processed

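The deposited median intensities of liver (Cy5) and reference RNA (Cy3) came unnormalized from Agilent Feature Extraction 11.5.1.1, per the file headers. The processed intensity and the log10 ratio of each spot that the authors deposited are background subtracted and dye normalized. The authors' series table holds log2 ratios, a scale read from its values (slope of 3.32 to 3.34 on the log10 ratio, column medians −0.072 to 0.076); steps between scanner ratio and table are not given in the sources used here.

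Median intensities were corrected with normexp (offset 50) and loess-normalized within arrays in limma 3.58.1 (R 4.3.3). Control spots and marked outlier spots (2.42% to 5.83% per array) were dropped, and no spot was saturated. Probes had to be well above background on at least 3 arrays, a gene needed at least 2 values per group, and its brightest probe was used. Of 41174 probes 59.2% had a symbol. A limma fit of the 3 groups over all 10 arrays, moderated by eBayes, gave two-sided p-values adjusted over 26124 genes. The number of arrays limits the precision (median SE of a log2 change 0.12 at 5 g/kg and 0.128 at 7 g/kg).

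Members, lists and tests were chosen with earlier results of these data known. The rule names all members, up to 4 genes per list with the smallest p at 7 g/kg and the 10 genes most like the members. Selenok, Ubxn4, Creld1, Hsp90b1, Hyou1, Calr and the markers that passed were picked after their values were seen. The steps were tested on simulated data. Alternatives changed background correction, normalization, source, channel, filter, marked spots, probe choice, slide and replicate number, and left out each array. Leaving out arrays and blocking on slide with marked spots kept were added after seeing the data. Same-numbered arrays did not deviate together (correlations −0.203 to 0.197), so numbers were not taken as pairs.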

Additional observations from a re-analysis of the deposited data

Results flagged for a closer look

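Results are listed here where the 2 ethanol doses differed from each other by a limma test of the difference itself. Pdia4 with marked spots kept differed by −1.145 on the log2 scale, 7 minus 5 g/kg, with the 3 arrays of 7 g/kg below the 4 of 5 g/kg (adjusted p = 0.0209). The Derl1 probe A_51_P504522 differed by 0.6218 (adjusted p = 0.0266), whose ratios were 0.538, 0.957 and 0.791 on the 7 g/kg arrays, against 0.205, 0.068, 0.401 and −0.114 on those of 5 g/kg, while the other 3 Derl1 probes differed by 0.13 to 0.42 and did not pass. Creld2 differed by −1.343 (adjusted p = 0.00948), averaging −0.95 ± 0.48 on 7 g/kg arrays, against 0.39 ± 0.42 on 5 g/kg arrays (SD, n = 3 each). Creld1 differed by −0.6661 (adjusted p = 0.00904), and Sec61b by 0.6158 (adjusted p = 0.0344). The neutrophil marker S100a8 differed by 0.8859 (adjusted p = 0.0166). S100a8 was well above background on no maltose array and on 3 of the 4 arrays of 5 g/kg. It entered the test only through the ethanol arrays, so this p-value is no support for a difference. Of the 8 tested genes, 5 had values on all 4 arrays of 5 g/kg, the 1 group large enough for Dixon's test, which marked no array as far from the others in these 5.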

How the results depend on the processing

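Xbp1 at 7 g/kg passed in every alternative with a test (log2 change 0.89 to 1.16 with within-slide values, adjusted p up to 0.0235). Against 4 genes called at 7 g/kg and 3 at 5 g/kg, the scanner processed signals and the deposited series table each called 2 and 1, and the Cy5 channel alone 1 and 0. With marked spots kept 1 gene (Pdia4) was called between the doses. Over all genes, in place of 2355, 992 and 410 calls for 7 minus maltose, 5 minus maltose and 7 minus 5 g/kg, the Cy5 channel alone gave 520, 125 and 38. In the same order the scanner signals gave 1713, 517 and 116 calls, and the deposited series table gave 1809, 584 and 138 of 26546 genes. A normexp offset of 10 gave 257 for the last comparison. With the replicate number as a replicate block, 6 genes were called at 5 g/kg and 1 between the doses. Number 4 exists only at 5 g/kg, so this block in effect leaves that array out. The share of all genes called with this block is not given here, so its counts cannot be read against it. Over the 22 alternatives, calls over all genes ran from 125 to 1050 at 5 g/kg and from 38 to 463 between the doses. Leaving out 1 array gave 2 to 4 genes at 7 g/kg, 1 to 7 at 5 g/kg and 0 to 1 between the doses, and 1504 to 2350, 468 to 1050 and 221 to 431 calls over all genes. Derl1 at 5 g/kg turned to 0.001345 with median centring, 0.1311 as a mean over probes and 0.04272 with the replicate block, and ranged from −0.1501 to 0.04272 on leaving out arrays. Derl3 at 7 g/kg ranged from −0.4691 to 0.1483. With marked spots kept, Herpud1 at 7 g/kg turned to 0.07125 with slide as a block and ranged from −0.1557 to 0.1346, and Pdia4 at 7 g/kg from −0.04693 to 0.1647. The cause of these shifts was not tested. Signal over background set no limit, since all 19 probes were well above background on all 10 arrays.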
